A study of Mus musculus with 26 samples.

Results

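The 10 genes described here encode parts of the intercalated disc, the junction that joins heart muscle cells end to end: the connexins Gja1, Gja5 and Gjc1, the desmosomal genes Dsp, Pkp2, Jup, Dsg2 and Dsc2, and the adherens junction genes Cdh2 and Ctnna3. They were selected by gene name from a matrix of RNA sequencing counts, by a rule that uses no measured value although earlier results of these data were known, and all 10 were found among the 56941 genes listed and passed the filter on low counts that left 15357 genes for testing. Left ventricle tissue came from 26 mice of 12 to 16 weeks, each of which had received saline for 2 weeks from an implanted osmotic minipump. Every mouse carried both floxed alleles of Ppp2r2a, the gene for the B55α regulatory subunit of protein phosphatase 2A. The knockout mice (cKO, aMHC-CreTg/0-Ppp2r2aL/L, 7 males and 7 females) also carried a Cre transgene that the cardiomyocyte promoter aMHC drives. The controls (Ctrl, aMHC-Cre0/0-Ppp2r2aL/L, 6 males and 6 females) lacked it. The background was mixed, with floxed mice of C57BL6/N and Cre mice of FVB origin, and mice with Cre but without floxed alleles were not analysed here, so effects of Cre or of FVB sequence near it cannot be told apart from those of the deletion.

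Connexins assemble into gap junction channels that pass current between neighbouring cardiomyocytes. Desmosomes bind the desmin filaments of adjoining cells through cadherins (Dsg2, Dsc2), armadillo proteins (Jup, Pkp2) and the linker desmoplakin (Dsp), and adherens junctions bind the actin of the sarcomeres through N-cadherin (Cdh2) and the catenins. In the adult mammalian heart both kinds of adhesive junction merge into a mixed structure, the area composita, in which αT-catenin (Ctnna3) binds plakophilin 2, and variants of the desmosomal genes are a known cause of arrhythmogenic cardiomyopathy.

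Total counts per mouse ranged from 14403102 to 30867399, with a mean of 21472133. Levels are given as CPM, the counts of a gene per 1000000 counts of the scaled library total. Ppp2r2a itself was 37.4 ± 10.2 CPM in Ctrl males (mean ± SD, n = 6), 14.1 ± 1.81 in cKO males (n = 7), 40.4 ± 3.60 in Ctrl females (n = 6) and 13.4 ± 2.07 in cKO females (n = 7), and no cKO mouse reached the level of any control. Ctrl males 3 and 6 stood apart at 24.9 and 24.1 CPM, below the other 4 Ctrl males at 41.9 to 47.7 CPM. All 8 cardiomyocyte markers examined were present in every library. Of 7 atrial cardiomyocyte markers, Myl7, Sln and Dhrs9 were at 0 in 20, 17 and 12 of the 26 libraries. None of these exceeded 0.174 CPM in any library. The other 4 were present in every library, with medians of 337 CPM for Nppa, 20.1 for Myl1, 18.8 for Stard10 and 1.41 for Myl4. The labels do not say that mice sharing a replicate number were related.

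Levels of different genes were compared only per length, as CPM per kilobase of annotated exon sequence. This length joins all annotated exons of a gene, 10257 bases for Gja1 and 9659 for Dsp, and can exceed that of the main transcript. A shorter length would raise the value of a gene. Transcript lengths in this tissue were not measured, so the order below holds for the joined lengths only. Dsp, the linker between desmosome and desmin, stood at 115 CPM per kilobase on average over the 26 mice and was above every other of the 10 genes in each mouse. Jup (plakoglobin) followed at 39.8, above Gja1 in 25 of 26 mice. Gja1 (connexin 43, the main ventricular connexin) at 29.8 and Pkp2 at 29.2 could not be ordered, since Gja1 was the higher in 15 of 26 mice. Cdh2 stood at 25.9 CPM per kilobase, below Pkp2 in 24 of 26 mice. The desmosomal cadherins came next and were again alike, with Dsg2 at 7.20 and Dsc2 at 6.89 and Dsg2 the higher in 16 of 26 mice. Gjc1 (connexin 45) at 3.76, Ctnna3 at 2.42 and Gja5 (connexin 40) at 0.988 followed in the same order in all 26 mice. Raw counts per mouse ran from 13591 to 36233 for Dsp, from 3437 to 10688 for Gja1 and from 79 to 181 for Gja5. The within-group SD on the log2 scale ran from 0.11 for Pkp2 to 0.29 for Gja5.

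The first question was whether loss of B55α in cardiomyocytes was accompanied by altered RNA levels of the disc genes. By edgeR's quasi-likelihood test at an adjusted p under 0.05, none of the 10 genes was called changed between cKO and Ctrl mice, whether among males, among females or in the mean over both sexes. The same test called 0.443% of all 15357 genes among males, 0.0326% among females and 1.33% for the mean effect. DESeq2 and limma voom also called 0 of the 10 in each of these contrasts. At an unadjusted p under 0.05, 1 of the 10 passed in males (Jup), 1 in females (Pkp2) and 1 in the mean effect (Pkp2), beside 13.2%, 5.15% and 14.1% of all genes. In bulk tissue, fewer cells of a type and less RNA per cell cannot be told apart, and this holds for each level given here.

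**Figure D1:**
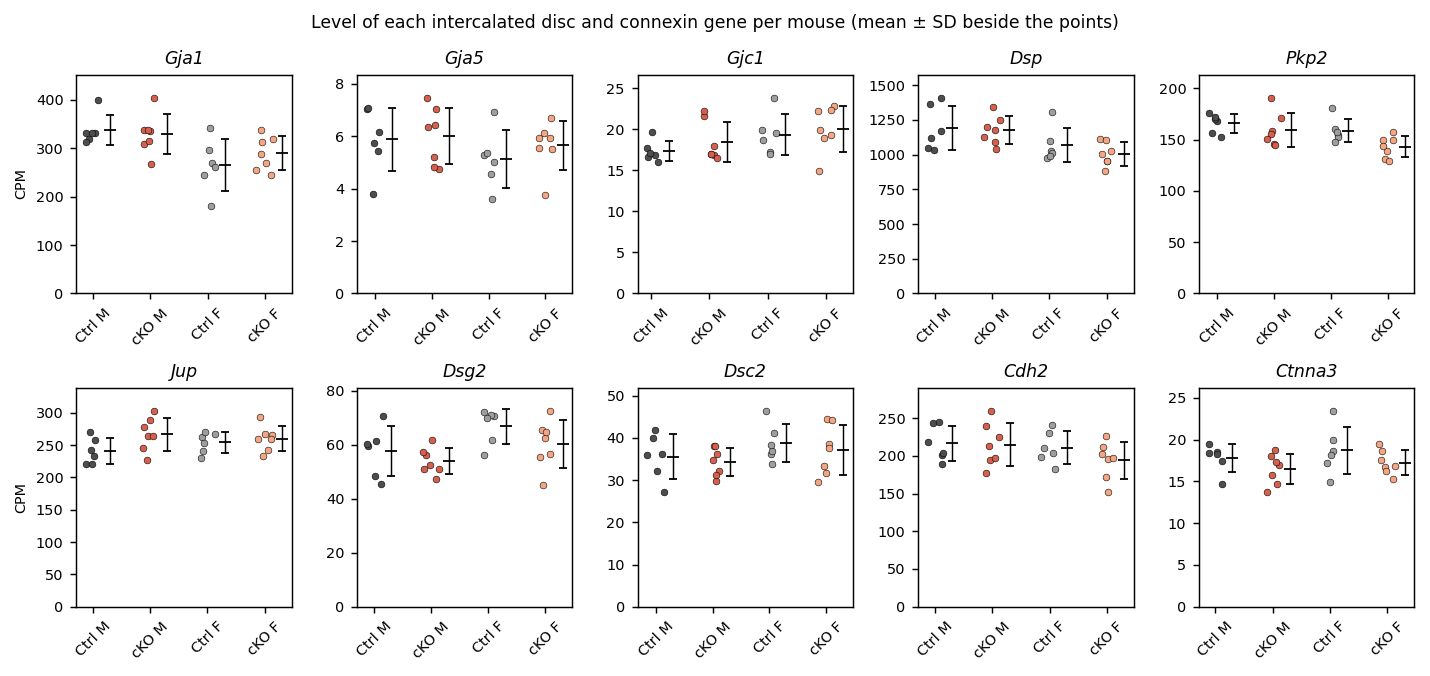
Level in CPM (y axis, linear and from 0) of each of the 10 genes in every mouse, with Ctrl and cKO males and females on the x axis. Points are mice and bars are mean ± SD. Knockout and control mice of the same sex overlapped for each gene, and Gja1 and Dsp were lower on average in females.

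Among the connexins, Gja1 lay at 312 CPM in the lowest, 331 in the median and 399 in the highest Ctrl male, and at 267, 335 and 404 in cKO males. In Ctrl females it lay at 181, 265 and 342, and in cKO females at 245, 288 and 337. The knockout range spanned the control range in males and lay within it in females. The mean genotype effect over both sexes was 0.05 on the log2 scale (SE 0.08, 95% interval -0.11 to 0.20, adjusted p = 0.857 by edgeR), or 3.23% with an interval from -7.29% to 14.9%.

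Gjc1, which encodes a connexin of the nodal and conducting tissue, was at a median of 17.0 CPM in Ctrl males (16.0 to 19.6) and 16.9 in cKO males (16.5 to 22.2). Female medians were 19.1 CPM in Ctrl (17.0 to 23.8) and 19.9 in cKO mice (14.9 to 22.8). Its mean genotype effect was 0.07 (95% interval -0.07 to 0.21). Gja5, a connexin of atrial, conducting and arterial endothelial cells, had medians of 5.95 CPM in Ctrl males (3.81 to 7.09), 6.34 in cKO males (4.74 to 7.46), 5.15 in Ctrl females (3.59 to 6.94) and 5.93 in cKO females (3.76 to 6.68). All 4 ranges overlapped, and the mean genotype effect was 0.08 (95% interval -0.13 to 0.30), the widest interval of the 10 genes. The markers of arterial endothelium summed to a mean of 108 and 115 CPM in Ctrl and cKO males and to 115 and 117 CPM in Ctrl and cKO females, with 6 of 6 higher in the mean genotype effect and 0 called. Those listed for atrial cardiomyocytes summed to 258 and 531 CPM in Ctrl and cKO males and to 341 and 558 CPM in Ctrl and cKO females. Nppa made up most of this sum, at a median of 337 CPM over all mice, while Myl7, Sln and Dhrs9 stayed near 0. In the mean genotype effect 4 of 4 tested atrial markers were higher in knockout mice and 1 was called. Markers of the conduction system summed to a mean of 33.6 and 37.3 CPM in Ctrl and cKO males. In Ctrl and cKO females they summed to 40.4 and 40.9 CPM. Of 5 tested, 3 were higher and 2 lower in the mean genotype effect, with 0 called. Among them, Cntn2 ranged from 0.07 to 13.7 CPM between mice. The part of these marker lists in the Gja5 and Gjc1 values was not tested.

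Among the desmosomal genes, Dsp lay at 1032, 1146 and 1409 CPM in the lowest, median and highest Ctrl male and at 1042, 1179 and 1345 in cKO males. In females it lay at 977, 1022 and 1305 CPM in Ctrl and at 886, 1007 and 1114 in cKO mice. The mean genotype effect was -0.05 (SE 0.06, 95% interval -0.17 to 0.06), smaller than the spread between mice. In percent this interval ran from -10.9% to 4.25%.

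Pkp2, the plakophilin of the heart, had the smallest unadjusted p of the 10 for the mean genotype effect. Levels were 153, 169 and 176 CPM (lowest, median, highest) in Ctrl males and 145, 156 and 191 in cKO males. In females they were 148, 156 and 181 CPM in Ctrl and 129, 144 and 157 in cKO mice. The groups overlapped in both sexes, although all 7 cKO females were below the mean of the Ctrl females and 4 of them below the lowest Ctrl female. The log2 difference was -0.15 in females (SE 0.06, unadjusted p = 0.0198, edgeR adjusted p = 0.932), -0.05 in males (edgeR adjusted p = 0.772) and -0.10 as the mean of both (SE 0.04, unadjusted p = 0.0243, edgeR adjusted p = 0.251). The mean corresponds to -6.92% with a 95% interval from -12.5% to -0.995%, a difference that did not pass the adjustment over all genes. The summed cardiomyocyte markers were also lower in knockout mice, at a mean of 60650 against 55637 CPM in males and 64224 against 60892 CPM in females, with 8 of 8 markers lower in the mean genotype effect and 1 called. Myh6 weighed most in this sum, at a median of 27855 CPM over all mice. The part of the cardiomyocyte markers in the Pkp2 values was not tested.

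Jup, the armadillo protein shared by desmosomes and adherens junctions, pointed the other way in males. Ctrl males lay at 221, 237 and 269 CPM and cKO males at 226, 264 and 302, with 6 of 7 cKO males above the Ctrl mean. The female values were 229, 258 and 271 CPM in Ctrl and 233, 259 and 294 CPM in cKO mice. The log2 difference was 0.15 in males (SE 0.06, unadjusted p = 0.0281, edgeR adjusted p = 0.304), 0.03 in females (edgeR adjusted p = 0.988) and 0.09 as the mean (95% interval -0.00 to 0.18). None of these passed, and the difference between the sexes was itself -0.12 with an edgeR adjusted p of 0.999.

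The desmosomal cadherins Dsg2 and Dsc2, which meet their partners in the gap between cells, showed mean genotype effects of -0.12 (95% interval -0.26 to 0.02) and -0.06 (-0.20 to 0.09). Dsg2 medians were 60.04 CPM in Ctrl males (45.3 to 70.6), 52.5 in cKO males (47.2 to 61.7), 70.3 in Ctrl females (56.3 to 72.2) and 62.6 in cKO females (45.2 to 72.5). In each sex 6 of 7 cKO mice lay below the Ctrl mean, within overlapping ranges. Dsc2 medians were 36.1 CPM (27.2 to 41.9) and 34.7 (29.8 to 38.2) in Ctrl and cKO males, and 37.7 (33.7 to 46.3) and 37.7 (29.6 to 44.4) in Ctrl and cKO females.

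Of the adherens junction genes, Cdh2 had medians of 211 CPM in Ctrl males (189 to 245), 213 in cKO males (177 to 259), 207 in Ctrl females (182 to 241) and 198 in cKO females (152 to 227). Its mean genotype effect was -0.07 (95% interval -0.20 to 0.06). Ctnna3, the αT-catenin that ties cadherin to plakophilin 2, had medians of 18.3 CPM in Ctrl males (14.7 to 19.5), 16.9 in cKO males (13.8 to 18.7), 18.4 in Ctrl females (14.9 to 23.4) and 16.8 in cKO females (15.3 to 19.5). Its mean genotype effect was -0.11 (95% interval -0.24 to 0.01). Neither gene separated knockout from control mice.

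As a group, 4 of the 10 genes were higher and 6 lower in the mean genotype effect, with a median of -0.05 against 0.00 over all genes tested. The median size of the effect regardless of sign was 0.08, against 0.07 over all genes. In males the corresponding sizes were 0.05 and 0.10, and in females 0.12 and 0.07. The widest 95% bound among the 10 genes was 0.33 in males, 0.46 in females and 0.30 for the mean effect, in each case that of Gja5, so larger log2 changes than these lay outside the intervals. No gene of the 10 had non-overlapping knockout and control mice in either sex, beside 1.28% of all genes in males and 0.169% in females. For the difference of the genotype effects between the sexes, 0 of 10 genes passed, against a background of 0% (0 of 15357 genes by edgeR, DESeq2 and limma voom, and 608, or 3.96%, at an unadjusted p under 0.05, where 0 of the 10 passed). The largest interaction among the members was 0.16 for Gja1 (95% interval -0.15 to 0.47).

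**Figure D2:**
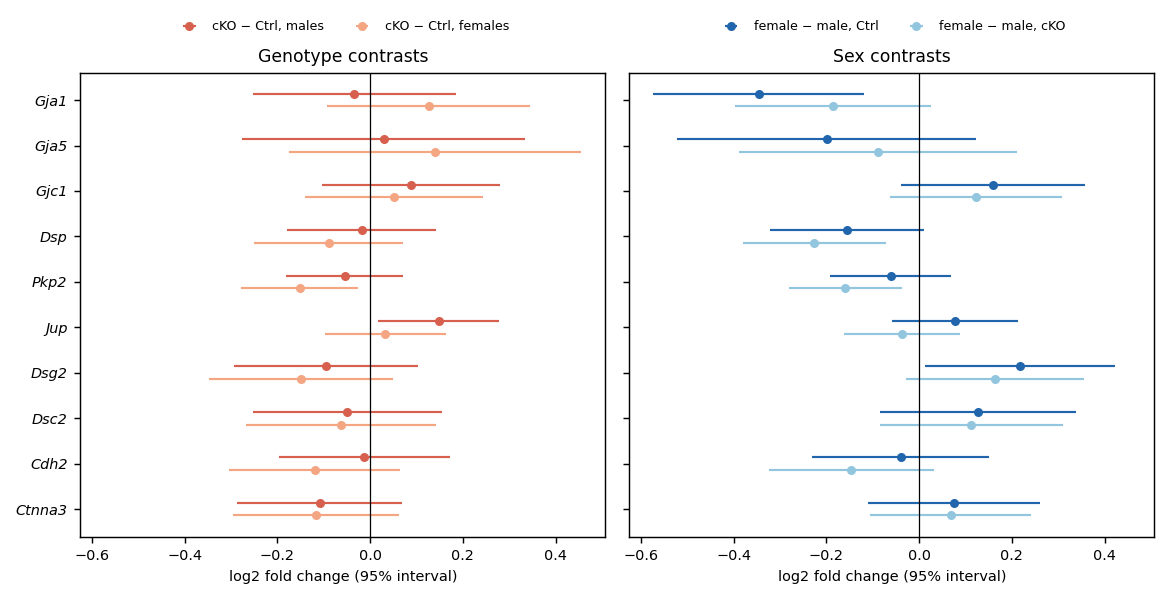
Log2 fold changes (x axis) with 95% intervals for each of the 10 genes (y axis), as cKO against Ctrl in males and females (left) and as female against male in Ctrl and cKO mice (right). Most intervals crossed 0. Gja1 and Dsp lay to the left in both sex contrasts, at -0.35 and -0.19 for Gja1 and at -0.16 and -0.23 for Dsp.

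Females were compared with males within each genotype. None of the 10 genes was called by edgeR in Ctrl mice (0.638% of all genes) or in cKO mice (2.7% of all genes), and DESeq2 and limma voom called none either. At an unadjusted p under 0.05, Gja1 and Dsg2 passed in Ctrl mice and Dsp and Pkp2 in cKO mice, beside 12.1% and 17.3% of all genes. None had non-overlapping sexes (1.02% of all genes in Ctrl and 1.09% in cKO mice). The mean of both sex contrasts, which was chosen after the other 6 contrasts had been seen, called 2 of the 10, Gja1 and Dsp, both lower in females. It called 7.71% of all genes, and 3.69% as lower in females.

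Gja1 had the largest sex difference of the 10 in Ctrl mice and in the mean of both genotypes, while in cKO mice that of Dsp was larger. Means were 337 ± 31.3 CPM in Ctrl males and 265 ± 53.8 in Ctrl females, and 329 ± 41.5 CPM in cKO males and 289.6 ± 35.1 in cKO females. Of 6 Ctrl females, 5 lay below the lowest Ctrl male, and of 7 cKO females, 2 lay below the lowest cKO male, so the sexes overlapped in both genotypes. The log2 difference was -0.35 in Ctrl mice (SE 0.11, unadjusted p = 0.00432, edgeR adjusted p = 0.163), -0.19 in cKO mice (edgeR adjusted p = 0.366) and -0.27 as the mean (SE 0.08, edgeR adjusted p = 0.0300), or -16.8% with a 95% interval from -25.3% to -7.39%. This call rested on single mice, since the adjusted p by edgeR was 0.0595 without Ctrl male 3 and 0.0503 without Ctrl female 4, and it was 0.0655 without the filter on low counts. Without the 2 Ctrl males of low Ppp2r2a, of which mouse 3 was also the Ctrl male of highest Gja1, the difference was -0.24 with an edgeR adjusted p of 0.0913.

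Dsp was called by the same contrast. Means were 1192 ± 160.0 CPM in Ctrl males and 1069.7 ± 123 in Ctrl females, and 1177 ± 101 CPM in cKO males and 1006 ± 84.1 in cKO females. All 7 cKO females lay below the cKO male mean and 5 of them below the lowest cKO male, while 4 of 6 Ctrl females lay below the lowest Ctrl male. The log2 difference was -0.16 in Ctrl mice (edgeR adjusted p = 0.456), -0.23 in cKO mice (SE 0.08, unadjusted p = 0.00560, edgeR adjusted p = 0.0987) and -0.19 as the mean (SE 0.06, edgeR adjusted p = 0.0326), or -12.4% with a 95% interval from -19.0% to -5.22%. The edgeR adjusted p rose to between 0.0506 and 0.0635 when Ctrl male 1, Ctrl male 2, cKO male 4, Ctrl female 1, Ctrl female 4 or cKO female 7 was left out. Markers of other cells moved with sex as well. In the mean sex contrast 6 of 6 macrophage markers were lower in females, with a median of -0.19 and 0 called, and 6 of 6 were lower within each genotype. Their sum ranged from 133 to 215 CPM in Ctrl males, 146 to 213 in cKO males, 115 to 175 in Ctrl females and 118 to 183 in cKO females. Of 8 cardiomyocyte markers, 5 were higher and 3 lower in females (2 called), and of 6 fibroblast markers, 3 were higher and 3 lower (3 called). The part of these markers in the Gja1 and Dsp differences was not tested.

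The sequences directly upstream of the first exon of Gja1 and Dsp are shown because these were the 2 genes that passed together. They are from RefSeq on the GRCm38.p6 build, whose promoter table matched 5 of the 10 genes, and cover the 250 bases before the annotated start, at chr10:56377050-56377299 for Gja1 and chr13:38151044-38151293 for Dsp, both on the plus strand. Capitals mark matches, on either strand, to the AP-1 motif TGANTCA or the GC box GGGCGG.
Gja1: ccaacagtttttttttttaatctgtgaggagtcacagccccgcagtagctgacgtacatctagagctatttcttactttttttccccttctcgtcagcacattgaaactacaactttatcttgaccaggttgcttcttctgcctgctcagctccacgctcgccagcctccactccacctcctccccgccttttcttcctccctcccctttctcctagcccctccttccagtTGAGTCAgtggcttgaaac
Dsp: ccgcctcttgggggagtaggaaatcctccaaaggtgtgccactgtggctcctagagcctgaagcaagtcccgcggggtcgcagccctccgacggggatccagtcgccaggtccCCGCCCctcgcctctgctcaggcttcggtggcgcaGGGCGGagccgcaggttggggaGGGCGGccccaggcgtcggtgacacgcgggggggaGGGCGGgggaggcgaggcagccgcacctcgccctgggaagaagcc
The Gja1 window held 1 AP-1 match, a motif found in 6.75% of 32851 promoters of this length, and 0 GC boxes. The Dsp window held 4 GC boxes, a motif found in 32.7% of promoters, and 0 AP-1 matches. The T-box motif GGTGTGA (3.33% of promoters), the consensus oestrogen response element (0.0639%) and the consensus androgen response element (0.00913%) were not found in either window. The 2 windows thus shared none of the 5 motifs searched, and a match describes letters, not binding.

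Pkp2, Dsg2 and Gjc1 had an unadjusted p under 0.05 in the mean sex contrast without being called. Together with Gja1 and Dsp this was 5 of 10 genes, against 22.2% of all genes. Pkp2 was lower in females (-0.11, edgeR adjusted p = 0.120), with all 7 cKO females below the cKO male mean. The difference in cKO mice alone was -0.16 (unadjusted p = 0.0120, edgeR adjusted p = 0.145). Dsg2 leaned toward higher values in females, by 0.22 in Ctrl mice (unadjusted p = 0.0389, edgeR adjusted p = 0.380), by 0.16 in cKO mice and by 0.19 as the mean (SE 0.07, edgeR adjusted p = 0.0881). It was called with limma voom (0.21, adjusted p = 0.0392) and, by edgeR, without Ctrl male 1 (adjusted p = 0.0374) or cKO female 2 (adjusted p = 0.0320). Gjc1 differed by 0.14 (edgeR adjusted p = 0.203). The other 5 genes ranged from -0.14 for Gja5 to 0.12 for Dsc2.

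Ratios between 2 genes of the same library do not depend on its total count. The log2 ratio of Gjc1 to Gja1 had a median of -4.27 in Ctrl males (-4.64 to -3.99) and -4.23 in cKO males (-4.33 to -3.84), and of -3.68 in Ctrl females (-4.31 to -3.41) and -3.84 in cKO females (-4.05 to -3.69). It was higher in female than in male groups, with overlap in both genotypes, and followed from the lower Gja1 and somewhat higher Gjc1 of females. The ratio of Jup to Dsp had medians of -2.31 in Ctrl males (-2.45 to -2.17), -2.11 in cKO males (-2.27 to -2.04), -2.03 in Ctrl females (-2.43 to -1.87) and -2.03 in cKO females (-2.09 to -1.77). The Ctrl males were the lowest group. The ratio of the desmosomal cadherins, Dsc2 to Dsg2, was alike in all groups, with medians of -0.73 in Ctrl and -0.66 in cKO males, and of -0.83 in Ctrl and -0.71 in cKO females. These ratios were not tested.

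Beyond group differences, the levels of the 10 genes were compared across individual mice after each group's mean had been subtracted. Of 45 pairs, 37 had a positive Pearson r and 11 passed with both Pearson's r and Spearman's rho (permutation within groups, 26 mice, adjusted over the 45 pairs). All 11 were among the 21 pairs of desmosomal and adherens junction genes, with a median r of 0.527 over the 21, whereas 0 of the 24 pairs with a connexin passed and their median r was 0.0900. How often pairs of other genes would pass was not examined, so these counts do not show a link particular to the disc genes. The highest was between Dsp and Cdh2, with r = 0.748 and rho = 0.775 (permutation p adjusted to 0.0009 and 0.00135). It was 0.839 in males and 0.646 in females, and 0.716 without the 2 mice farthest from the median of Dsp. Dsg2 with Dsc2 followed, with r = 0.715 and rho = 0.547, then Dsp with Dsc2 (r = 0.646), Dsc2 with Ctnna3 (r = 0.630) and Pkp2 with Cdh2 (r = 0.617).

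**Figure D3:**
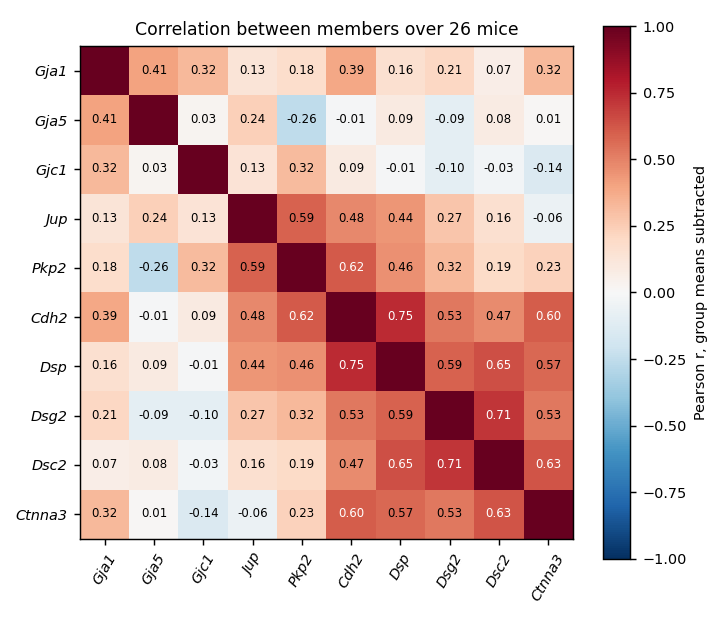
Pearson r between each pair of the 10 genes over 26 mice, of log2 CPM with the mean of each group subtracted; both axes list the genes and colour gives r from -1 to 1. Dsp, Cdh2, Dsg2, Dsc2 and Ctnna3 form a block of positive values with Pkp2 and Jup at its edge. The connexins Gja5 and Gjc1 have values near 0 with most others, and Gja1 has positive values from 0.07 with Dsc2 to 0.41 with Gja5.

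The 11 pairs that passed had r between 0.448 and 0.716 without the 2 outermost mice, between 0.410 and 0.844 in males and between 0.415 and 0.745 in females. These pairs had been picked by their values over the same mice, so high values in the parts are no independent support. Of all 45 pairs, 31 had an r of the same sign in both sexes. The junction genes also tracked the summed cardiomyocyte markers, with r = 0.829 and rho = 0.831 for Dsp (permutation p adjusted over the 10 genes to 1e-04 and 0.0002, 1e-04 resting on the smallest p the permutations can give; r = 0.831 without the 2 outermost mice). The corresponding r was 0.729 for Cdh2, 0.649 for Pkp2, 0.589 for Ctnna3, 0.545 for Dsg2 and 0.522 for Dsc2, each of which passed with both measures, and 0.438 for Jup, which passed with rho alone. For the connexins it was 0.347 for Gja1, 0.241 for Gjc1 and -0.02 for Gja5, and none of the 3 passed. Myh6 weighed most in the marker sum, at a median of 27855 CPM over all mice, followed by Myl2 at 8141 CPM. With the marker sum held constant, r of the 11 pairs ranged from 0.185 for Dsp with Ctnna3 to 0.602 for Dsg2 with Dsc2, and that of Dsp with Cdh2 was 0.375. The correlation with the total count of the library lay between -0.404 for Jup and 0.153 for Gja1.

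The genes whose levels followed each member most closely over the 26 mice were taken from the 10248 genes with a mean of at least 5 CPM, by Pearson r of the same group-centred values and without a test. They were Svil, Tns1 and Uba1 for Dsp (r = 0.902, 0.880 and 0.873) and Pgm5, Slc22a3 and Osbp for Cdh2 (0.889, 0.849 and 0.842). For Gja1 they were Gm9899, Lsmem2 and Smad3 (0.849, 0.765 and 0.745), and for Dsg2 they were Slc25a42, Acsl1 and Corin (0.845, 0.818 and 0.806). For Pkp2 they were Scaf8, Wdr43 and Gmpr (0.774, 0.767 and 0.763) and for Jup they included Scaf8 and Ranbp10 (0.796 and 0.768), so that Scaf8 headed both lists of the armadillo genes. For Dsc2 they were Cog7, Rubcn and Slc41a1 (0.808, 0.739 and 0.739), and for Ctnna3 they were Cd99l2, Fhod3 and Ppp1r12b (0.824, 0.793 and 0.779). For Gjc1 they were Trp53i11, Plscr3 and Spaca6 (0.808, 0.716 and 0.708). Gja5 had the weakest, Tars, Gripap1 and Bcas2 (0.674, 0.662 and 0.632). No member was among the 3 closest genes of another member.

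The partners of these genes at the disc were examined as lists of genes. Of 14 tested partners of the adherens junction and area composita, 0 were called in the mean genotype effect (9 higher, 5 lower, median 0.06 against 0.00 over all genes). The smallest p belonged to Cdh13, a cadherin without a cytoplasmic tail (0.13, edgeR adjusted p = 0.215), and Ctnnd1, p120 catenin (0.14, edgeR adjusted p = 0.266). Of 9 partners of desmosomes and intermediate filaments, 0 were called (7 higher, 2 lower, median 0.05), led by Tmem43 (0.09) and Plec, the cytolinker plectin (0.10). The transcription factors that act on connexin genes gave 0 of 9 (2 higher, 7 lower, median -0.04), led by Tbx18 (-0.24, edgeR adjusted p = 0.221) and Nkx2-5 (-0.05). Wnt and β-catenin targets gave 0 of 6 (5 higher, 1 lower, median 0.12), led by Ccnd1 (0.11) and Znrf3 (0.11). Of 20 other connexins and pannexins 6 were tested and 0 called (3 higher, 3 lower, median -0.03), led by Panx2 (-0.37) and Gja4 (0.13), the latter a connexin of arterial endothelium. The 8 desmosomal cadherins and plakophilins of epithelia were all below the filter, with at most 11 counts in any mouse for Pkp3 and 0 for Dsc3.

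**Figure D4:**
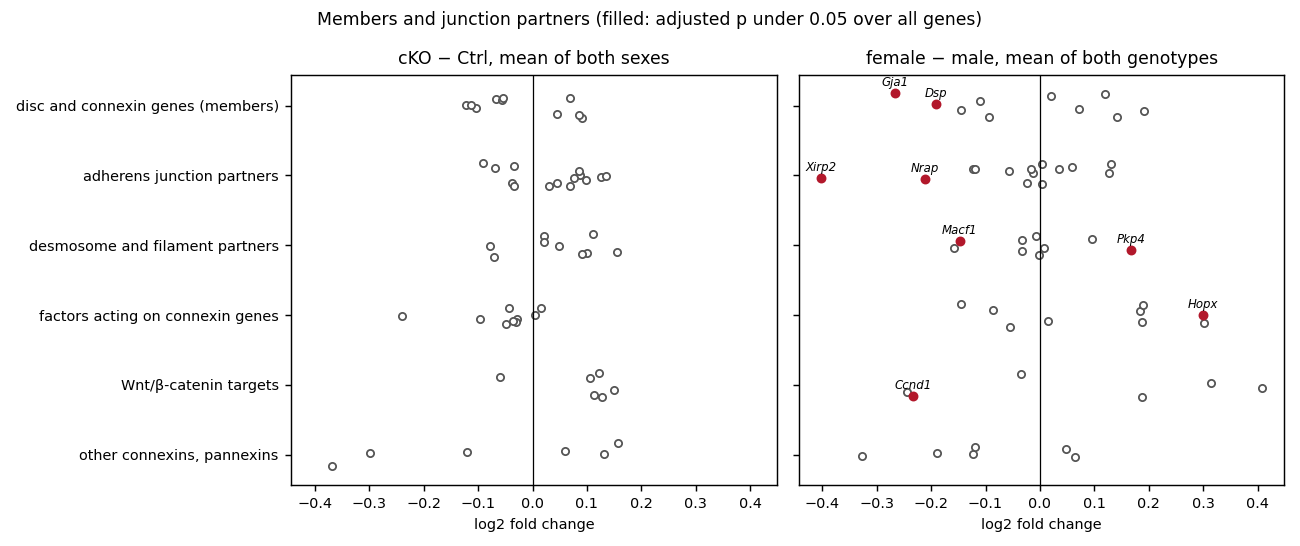
Log2 fold change (x axis) of each tested gene of the 10 members and of the partner lists described (y axis), as the mean of both sexes for cKO against Ctrl (left) and the mean of both genotypes for female against male (right). Filled points passed an adjusted p under 0.05 over all genes. No point was filled on the left, and Xirp2 lay farthest out among the filled genes on the right at -0.40.

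The partners were compared between the sexes as well. Xirp2, an actin-binding protein of the disc, had medians of 711 CPM in Ctrl males (624.8 to 845), 797 in cKO males (649 to 956), 576 in Ctrl females (476 to 616) and 581 in cKO females (522 to 654). In Ctrl mice all 6 females lay below all 6 males, and in cKO mice 6 of 7 females lay below the lowest male. The log2 difference was -0.35 in Ctrl mice (SE 0.09, edgeR adjusted p = 0.0720), -0.46 in cKO mice (SE 0.08, edgeR adjusted p = 0.00387) and -0.40 as the mean (SE 0.06, edgeR adjusted p = 0.000197), further from 0 than the values of Gja1 and Dsp. The difference in Ctrl mice was called by DESeq2 (adjusted p = 0.0245) and without Ctrl male 5 (edgeR adjusted p = 0.0484).

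Of the other partners, Nrap (a nebulin-related anchoring protein of the disc, -0.21), Macf1 (a cytoskeletal linker, -0.15) and Ccnd1 (cyclin D1, -0.23) were lower in females in the mean sex contrast. Hopx (a homeodomain protein, 0.30) and Pkp4 (a p120-related armadillo protein, 0.17) were higher. The edgeR adjusted p of these genes lay between 0.00841 and 0.0424. Over all genes this contrast called 4.02% as higher. The calls of Nrap, Pkp4 and Macf1 were the least stable and were lost in 12, 17 and 15 of 26 omissions of 1 mouse.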

How the data were processed

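As deposited by the authors, the matrix holds raw gene counts of 26 polyadenylated RNA libraries, not normalized. Per the submitters' processing notes, FastQC 0.74, cutadapt 4.6, STAR 2.7.11a and HTSeq were used with GRCm39. The annotation release and the strand setting are not given in the sources used here, so reads of overlapping or antisense genes may have been shared. Per the labels' protocols the libraries were stranded and RNA integrity numbers were at least 7.7.

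The members and lists were chosen with earlier results of these data known. Groups came from the genotype and sex labels. Counts of all 72 pairs of mice within groups differed by more than sampling noise (chi-square per degree of freedom 7.79 to 36.4). Genes passing filterByExpr (minimum count 10) were scaled by TMM and fitted in edgeR 4.0.16 (R 4.3.3) with 4 group means, robust dispersions and quasi-likelihood F tests, with Benjamini-Hochberg adjustment across the whole table. P-values measure the spread between these mice. Log2 CPM had a prior count of 2, and gene lengths and chromosomes came from GENCODE M21 (GRCm38). Named genes are the 10 members, list genes called in any contrast, the 2 genes of smallest p per list in the mean genotype effect and the 3 most alike genes per member. Some genes that this rule selects, and 1 list, are not reported here. Methods were tested on simulated data. The alternatives were DESeq2 1.42.0, its size factors, limma 3.58.1 voom, other filters, no robust estimation, only the compared groups, the replicate block and omission of mice. The mean sex contrast, the omission of Ctrl males 3 and 6, and the correlation with cardiomyocyte markers held constant were chosen after seeing the data.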

Additional observations from a re-analysis of the deposited data

Results flagged for a closer look

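Of 60 sets of values (each a gene or within-library ratio in 1 group), 2 held a mouse set far apart from the rest of its group; chance alone flags about 1 in 20 such sets. Gja1 in Ctrl male 3 stood at 399.2 CPM, with the next highest Ctrl male at 331.8 CPM. The same mouse had 24.9 CPM of Ppp2r2a. Gja5 in cKO female 6 stood at 3.76 CPM, with the next lowest cKO female at 5.53 CPM.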

How the results depend on the processing

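Gja5 had the fewest counts, at 79 to 181 per mouse. With 6 or 7 mice a group, the intervals above give the range of effects that the data allow for each gene, without adjustment over genes. A call also required passing the adjustment over all genes. No named fold change turned its direction: of 1498 values under alternatives for 50 fold changes, 1431 kept their side of the threshold, 61 lost a call and 6 gained one. Most of the 50 were not called in the main fit and so could not lose a call. All 61 losses fell on Gja1, Dsp, Nrap, Pkp4 and Macf1 in the mean sex contrast, so these calls were less stable than the share of 1498 values conveys. The members' count of 0 held under every alternative in males, females, the interaction, the mean genotype effect and the sex difference in cKO mice. Genes called numbered, for DESeq2, 386 in males, 9 in females, 525 for the mean genotype effect, 253 for sex in Ctrl and 708 for sex in cKO mice. With voom they numbered 211 in males, 325 for the mean genotype effect and 688 for sex in cKO mice. Without a filter they were 31, 113 and 244 in the same order and 780 for the mean sex difference, where 1 member was called. With a mean of at least 5 CPM they were 164 in males and 2 in females. With only the compared groups they were 1 in females and 61 for sex in Ctrl mice. Without both Ctrl males of low Ppp2r2a they were 7 in males, 40 for sex in Ctrl mice and 699 for the mean sex difference, with 1 member called. Leaving out 1 mouse gave 4 to 79 genes in males (4 without Ctrl male 5), 3 to 7 in females, 96 to 349 for the mean genotype effect, 54 to 114 and 163 to 548 for sex in Ctrl and cKO mice, and 0 to 3 members for the mean sex difference. The causes were not tested. Mice sharing a replicate number were not treated as pairs in the main fit. The mean correlation of same-numbered Ctrl and cKO deviations was 0.00825 in males (-0.196 to 0.129), against -0.00142 between other numbers. In females it was 0.179 (-0.127 to 0.603), against -0.0267 between other numbers. In males 1 and in females 2 of 6 mice correlated best with their own number. These values did not settle whether replicate numbers paired mice. The replicate block gave 3 genes in females and called 1 member, Gja1, for sex in Ctrl mice (-0.36, edgeR adjusted p = 0.0445).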
